A study of Mus musculus with 12 samples.

Results

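A set of 8 genes that tune MAPK signalling was followed in mouse neutrophils exposed to 3 bile acids. They are the stress-induced activators Gadd45a, Gadd45b and Gadd45g and the phosphatases Dusp1, Dusp2, Dusp6, Dusp10 and Dusp16. They were picked by name, with their behaviour in these same samples already known, and each is 1 row of the 29737 genes in the deposited table. Neutrophils of wild-type mice were taken from the bone marrow with magnetic beads as Ly6G+ cells and kept in culture for 24 h. The control group received PBS, the vehicle, and the other groups received TCA (taurocholic acid) at 200 μM, GCA (glycocholic acid) at 200 μM or Tβ-MCA (tauro-β-muricholic acid) at 10 μM, as the labels state. The study's methods name the same concentration for all the bile acids, so the dose of Tβ-MCA is not certain. Those methods describe young female C57BL/6 mice, and an enrichment kit in place of the Ly6G selection of the labels. Each of the 4 groups held 3 samples, and the labels number them 3, 5 and 6 for PBS and 3, 4 and 5 for every bile acid. The study describes its data as coming from biologically independent experiments, but no source used here ties a sample to a mouse or a culture, and p-values measure the spread between these samples, which may be technical.

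MAP kinases are the last step of a chain of 3 kinases that carries stress and growth signals to the nucleus. The p38 and JNK branches answer mainly to stress and the ERK branch mainly to growth factors, and in neutrophils they take part in activation, cytokine production and survival. Gadd45 proteins are small proteins without enzyme activity that bind MEKK4, the product of Map3k4 at the top of the p38 and JNK branches, and switch it on. Dual-specificity phosphatases (Dusp) work at the other end, where they take the activating phosphates off the MAP kinases. Many of these genes are themselves switched on by the pathway that they control. Levels of mRNA do not give kinase activity, which was not measured in these files. From Western blots the study reports more phosphorylated p38 and ERK in neutrophils given Tβ-MCA.

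Total counts per sample lay between 32757389 and 41375925. Levels are given as CPM, counts divided by the sample's library size, scaled by edgeR's TMM factor, and brought to a common total, and as RPKM where different genes are compared, since RPKM also divides by exon length. All 13 neutrophil markers were detected in every sample, with a summed level of 48138 to 59559 CPM in PBS, 46090 to 56646 in TCA, 43640 to 54311 in GCA and 38422 to 43873 in Tβ-MCA. Ly6g, the marker of the selection, lay at 17.8 to 21.4 CPM in PBS and at 7.53, 8.31 and 12.9 CPM with Tβ-MCA (in the order of replicates 3, 4 and 5, as throughout). The 12 monocyte markers were also present in every sample, and none was at 0. Their summed level was 3285 to 3751 CPM in PBS and 3090 to 3796 CPM in TCA, but in Tβ-MCA it was 595 CPM (replicate 3), 753 CPM (replicate 4) and 2561 CPM (replicate 5). Tβ-MCA replicate 5 therefore stood apart from the other Tβ-MCA samples and nearer to the controls, and results for Tβ-MCA are given with it and without it. Within GCA, replicate 4 had the lowest summed monocyte level, 2258 CPM, where the highest GCA sample had 3428 CPM. All 12 monocyte markers had a negative log2 fold change with Tβ-MCA, with a median of -0.85, and 1 of them passed the test described below. In these bulk samples fewer cells of a type and less RNA per cell cannot be told apart.

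Eosinophil markers summed to 144 to 254 CPM in PBS and 57.5 to 130 CPM in Tβ-MCA, while TCA spanned 138 to 225 CPM and GCA 118 to 249 CPM. Basophil and mast cell markers lay at 63.5, 65.4, 55.4 and 64.0 CPM in replicate 3 of PBS, TCA, Tβ-MCA and GCA. In all other samples they lay between 29.6 and 37.8 CPM. B cell markers lay between 8.47 and 18.4 CPM over the groups, T and NK cell markers between 12.1 and 15.3 CPM and erythroid markers between 1.23 and 3.30 CPM.

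The start regions of the most abundant members are shown because these members differed from PBS in opposite directions with Tβ-MCA, so that a reader can see which short motifs they share. RefSeq held a promoter window for all 8 genes, in GRCm38.p6, the build of the deposited table. The stretches run 5′ to 3′ and stop where the earlier of the RefSeq and the deposited gene start lies, which removed 50 bases from Gadd45a and 47 bases from Dusp1. Capitals mark matches on either strand to TGACGTCA (the cAMP response element), CACGTG (the E-box) and TATAAA (the TATA box).
Gadd45a, chr6:67037458-67037657, minus strand: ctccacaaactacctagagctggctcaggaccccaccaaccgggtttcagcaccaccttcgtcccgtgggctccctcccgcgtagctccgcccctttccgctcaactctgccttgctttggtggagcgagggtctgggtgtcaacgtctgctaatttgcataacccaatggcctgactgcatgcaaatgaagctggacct
Gadd45b, chr10:80929841-80930090, plus strand: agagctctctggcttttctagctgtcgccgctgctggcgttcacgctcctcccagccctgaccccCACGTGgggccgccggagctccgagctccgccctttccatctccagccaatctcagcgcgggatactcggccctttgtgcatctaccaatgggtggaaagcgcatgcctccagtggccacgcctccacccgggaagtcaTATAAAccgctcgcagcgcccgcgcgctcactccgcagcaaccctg
Gadd45g, chr13:51846425-51846674, plus strand: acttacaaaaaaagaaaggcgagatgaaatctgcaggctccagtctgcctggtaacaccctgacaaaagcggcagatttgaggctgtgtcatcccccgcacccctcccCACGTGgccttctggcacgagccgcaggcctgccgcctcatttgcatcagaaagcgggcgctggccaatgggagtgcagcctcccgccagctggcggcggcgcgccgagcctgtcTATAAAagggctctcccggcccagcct
Dusp1, chr17:26508520-26508722, minus strand: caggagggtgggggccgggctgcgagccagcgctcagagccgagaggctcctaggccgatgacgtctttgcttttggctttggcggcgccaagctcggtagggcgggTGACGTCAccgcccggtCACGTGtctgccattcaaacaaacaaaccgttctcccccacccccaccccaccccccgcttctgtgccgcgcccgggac

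The E-box letters stood 185 bases before the RefSeq start of Gadd45b, 142 before that of Gadd45g, 126 before that of Dusp1 and 109 before that of Dusp2. Thus 4 of the 8 windows held CACGTG, against 7.15% of all 32851 RefSeq mouse windows of the same length. These 4 genes include both members that were higher and members that were lower with Tβ-MCA. The full TGACGTCA was found in Dusp1, 143 bases before its start, and in 1.79% of all windows. The shorter TGACG, which is contained in it, occurred in 3 of the 8 windows, Dusp1, Dusp2 and Dusp16, and in 20.8% of all windows. The windows also hold bases past the start, and the match in Dusp2 began 5 bases past its RefSeq start. TATAAA was found 46 bases before the start of Gadd45b and 27 before that of Gadd45g, and in 13.6% of all windows. Gadd45a had none of the 3 marked motifs, but held GGGCGG, the GC box, as did 6 of the 8 windows and 35.7% of all windows. TGATGNAA, the composite site of CHOP and ATF4, was found in Gadd45g and in 3.97% of all windows. TGANTCA (AP-1), TTCNNNGAA (the site of STAT factors), the CArG box and the NF-κB site were not found in the 8 windows, and occurred in 7.81%, 8.30%, 1.63% and 4.51% of all windows. A match is a description of letters and says nothing of a factor's binding.

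The 8 genes differed widely in level. On the RPKM scale Dusp1 was the most abundant, with 171 to 208 RPKM in the PBS samples. Gadd45b followed with 49.4 to 62.6 RPKM, Gadd45g with 31.6 to 35.3 RPKM and Gadd45a with 24.0 to 28.3 RPKM. Dusp6 had 2.00 to 2.63 RPKM, Dusp16 0.632 to 0.841 RPKM, Dusp2 0.419 to 0.582 RPKM and Dusp10 0.153 to 0.177 RPKM. With PBS no neighbours in this order overlapped. With Tβ-MCA several neighbours did, since Dusp1 spanned 104 to 150 RPKM and Gadd45b 71.9 to 118 RPKM, and Gadd45g (38.9 to 57.1) overlapped Gadd45a (34.5 to 59.5). Dusp16 (0.403 to 0.567 RPKM), Dusp2 (0.0556 to 0.433) and Dusp10 (0.0803 to 0.165) also overlapped their neighbours there. With TCA, Dusp16 overlapped Dusp2 and Dusp2 overlapped Dusp10, and with GCA, Gadd45g overlapped Gadd45a.

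**Figure D1:**
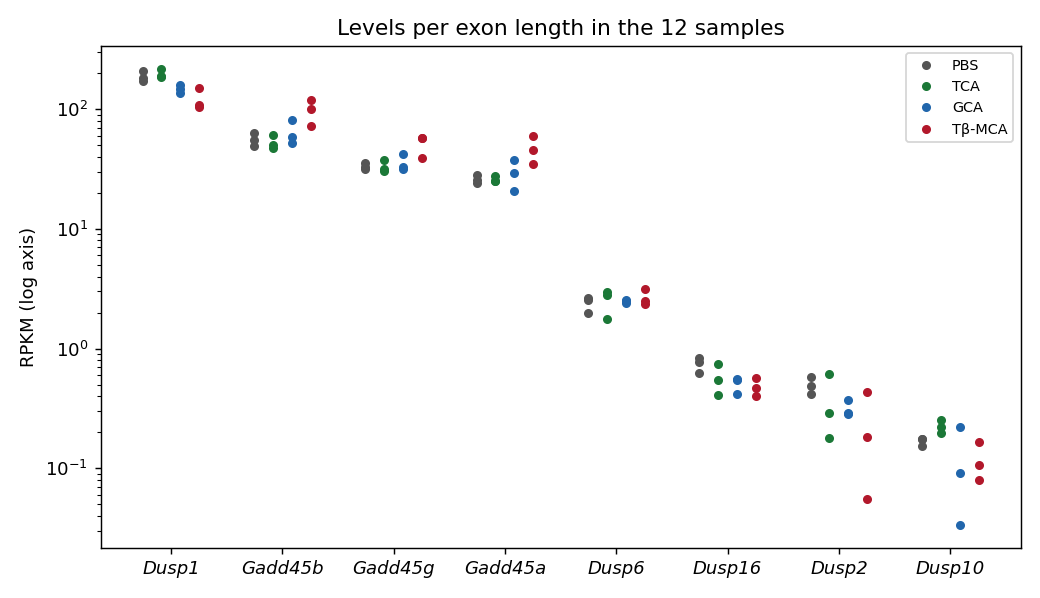
Deposited RPKM of the 8 genes, on a log axis, with 1 point for each of the 12 samples and a color for each treatment group. Dusp1 lies highest in every PBS, TCA and GCA sample and overlaps Gadd45b in Tβ-MCA, the 3 Gadd45 genes lie between 20.8 and 118 RPKM, and Dusp16, Dusp2 and Dusp10 lie at 0.841 RPKM or less in every sample.

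Low counts limit what the rarest members can show. Dusp10 was covered by 4 to 32 counts per sample and Dusp2 by 4 to 45, whereas Dusp1 had 9160 to 21164. Of the genes with a count between 2 and 50, 74.7% to 77.3% were even in every sample, so that a count of 4 may rest on fewer independent fragments. A floor of 3 counts corresponds to 0.0725 to 0.0930 CPM, and every member was above it in every sample. The floor covers counting error only. The intervals of log2 fold changes given below come from the edgeR fit, and they also include the spread between samples.

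Gadd45a (ENSMUSG00000036390, chr6:67035096-67037457, minus strand), a target of p53 that is induced by DNA damage, was higher with Tβ-MCA. Its levels with Tβ-MCA were 79.4, 102 and 59.98 CPM, against 43.3, 50.3 and 45.6 CPM with PBS (replicates 3, 5 and 6, in that order throughout). All Tβ-MCA samples lay above all PBS samples, and replicate 4 was the highest of the 12. The log2 fold change was 0.79 ± 0.21 (SE), which is 1.73-fold. With TCA it lay at 49.8, 44.4 and 44.2 CPM, inside the PBS range. With GCA it spread more widely, from 37.3 in replicate 3 to 64.3 in replicate 4 and 51.8 CPM in replicate 5, so that GCA overlapped PBS on both sides. The exons of Gadd45a share 337 bases with those of E230016M11Rik on the opposite strand. The library kit keeps the strand, but whether the counting used it is not given in the sources used here, so reads of these 2 genes cannot be told apart in the shared stretch.

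Gadd45b (ENSMUSG00000015312, chr10:80930091-80932204, plus strand), which is induced by NF-κB and by TGF-β in many cells, was higher in the same samples. Its levels were 124, 145 and 89.8 CPM with Tβ-MCA and 64.1, 79.9 and 70.5 CPM with PBS. The groups did not overlap, and replicate 5 was again the lowest of the Tβ-MCA samples. The log2 fold change was 0.74 ± 0.20 (SE), or 1.67-fold. TCA gave 78.7, 63.3 and 59.9 CPM and GCA 66.6, 100 and 74.4 CPM, and both groups overlapped PBS.

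Gadd45g (ENSMUSG00000021453, chr13:51846678-51848468, plus strand), the family member known for its induction by cytokines, differed least of the 3. It was at 65.5, 64.9 and 45.0 CPM with Tβ-MCA and at 39.1, 41.8 and 37.1 CPM with PBS. The lowest Tβ-MCA sample exceeded the highest PBS sample by a small margin. The log2 fold change was 0.57 ± 0.15 (SE), which is 1.49-fold. TCA, with 45.6, 35.9 and 37.1 CPM, and GCA, with 37.4, 48.7 and 39.1 CPM, overlapped PBS.

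The 3 Gadd45 genes varied together from sample to sample. Over the 12 samples the Pearson r of their log2 CPM was 0.97 for Gadd45a with Gadd45b, 0.96 for Gadd45b with Gadd45g and 0.94 for Gadd45a with Gadd45g. These are descriptions over samples that share their treatment groups, and no p is given. In GCA replicate 4, where the monocyte markers were lowest in that group, all 3 genes had their highest GCA level.

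Dusp1 (ENSMUSG00000024190, chr17:26505590-26508519, minus strand), an early-response phosphatase that acts on p38 and JNK, was lower with Tβ-MCA. Its levels were 274, 285 and 400 CPM with Tβ-MCA, and 499, 566 and 463 CPM with PBS. All Tβ-MCA samples lay below all PBS samples, with replicate 5 the nearest to the controls. The log2 fold change was -0.67 ± 0.14 (SE), a level 0.627 times that of PBS. GCA was also below PBS in every sample, at 400, 360 and 432 CPM, with a log2 fold change of -0.36 ± 0.14 (SE). TCA was not, at 601, 511 and 498 CPM, and its log2 fold change was 0.08 ± 0.14 (SE). Dusp1 ran opposite to the Gadd45 genes over the 12 samples, with r of -0.77 with Gadd45a, -0.80 with Gadd45b and -0.77 with Gadd45g.

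**Figure D2:**
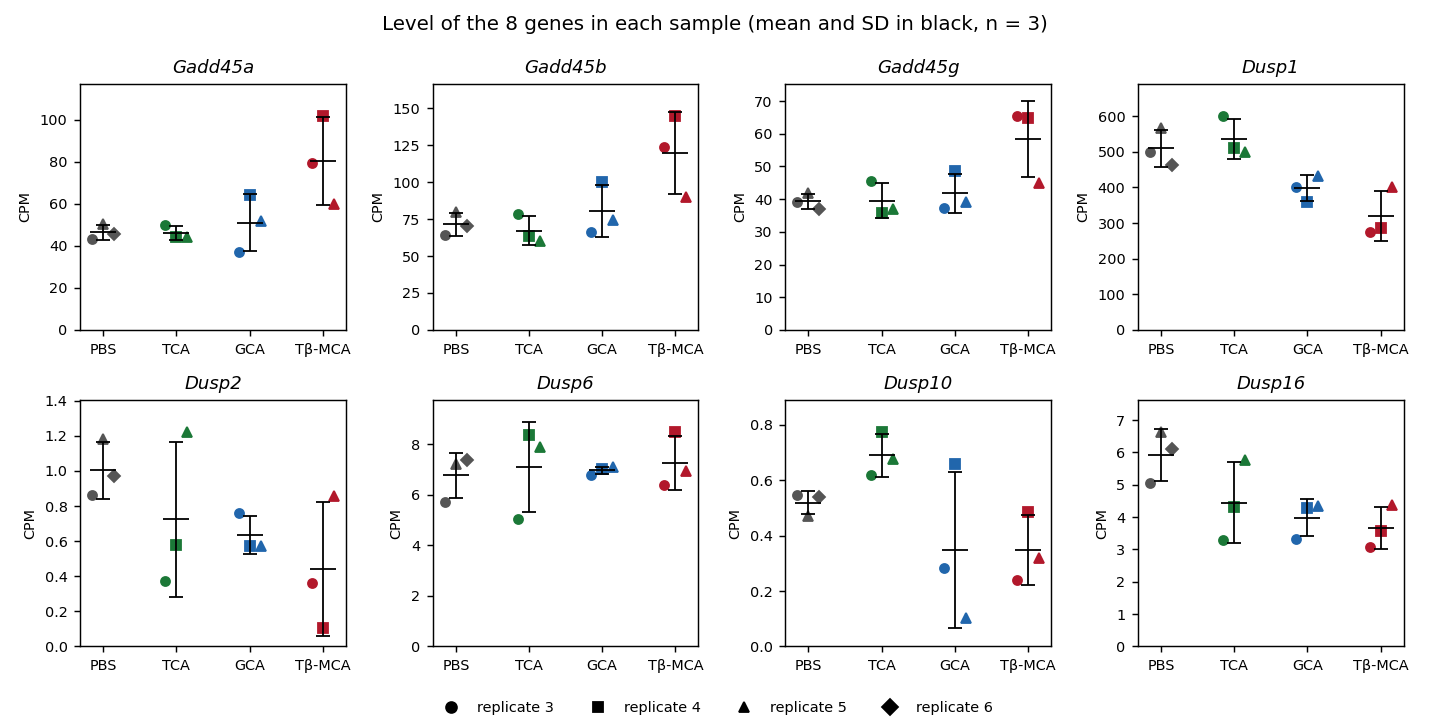
CPM of each of the 8 genes in the 12 samples, by treatment group. Symbols mark the replicate number, and the black bar and whiskers give the mean and SD of 3 samples. The Tβ-MCA samples lie above all PBS samples for the 3 Gadd45 genes and below them for Dusp1, Dusp16 and, on this TMM scale, Dusp2, and Tβ-MCA replicate 5 is the one nearest to PBS for these genes.

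Dusp16 (ENSMUSG00000030203, chr6:134715468-134792625, minus strand), a phosphatase that prefers JNK and p38, was low in level and lower with Tβ-MCA and GCA. PBS gave 5.05, 6.62 and 6.09 CPM and Tβ-MCA 3.08, 3.56 and 4.36 CPM. The GCA samples, at 3.32, 4.29 and 4.33 CPM, also lay below all PBS samples, whereas TCA, at 3.29, 4.30 and 5.76 CPM, overlapped them. The log2 fold changes were -0.69 ± 0.20 (SE) for Tβ-MCA, -0.57 ± 0.20 for GCA and -0.41 ± 0.20 for TCA.

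Dusp2 (ENSMUSG00000027368, chr2:127336159-127338376, plus strand), a nuclear phosphatase of immune cells, was near the limit of what these counts can show. It had 0.860, 1.18 and 0.970 CPM in PBS and 0.359, 0.108 and 0.856 CPM with Tβ-MCA. The highest Tβ-MCA sample lay just under the lowest PBS sample, and above it when CPM was taken by total counts without the TMM factor. The log2 fold change of -1.17 ± 0.53 (SE) became -2.11 ± 0.55 without Tβ-MCA replicate 5. GCA, at 0.760, 0.573 and 0.570 CPM, was below PBS in every sample, and TCA spread from 0.372 to 1.22 CPM.

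Dusp10 (ENSMUSG00000039384, chr1:184013302-184075636, plus strand), which prefers p38 and JNK, was the rarest member. Its levels were 0.545, 0.471 and 0.539 CPM in PBS, 0.239, 0.486 and 0.321 CPM in Tβ-MCA and 0.282, 0.658 and 0.104 CPM in GCA, and both bile acid groups overlapped PBS. TCA, at 0.620, 0.773 and 0.677 CPM, lay above PBS in every sample. The log2 fold changes were -0.56 ± 0.49, -0.59 ± 0.49 and 0.41 ± 0.45 (SE) for Tβ-MCA, GCA and TCA, so that none stood clear of its error.

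Dusp6 (ENSMUSG00000019960, chr10:99263231-99267488, plus strand), the cytoplasmic phosphatase that is selective for ERK and is itself induced by ERK signalling, had similar levels in the 4 groups. It was at 5.73 to 7.36 CPM in PBS, 5.05 to 8.36 in TCA, 6.79 to 7.08 in GCA and 6.40 to 8.47 in Tβ-MCA. The 95% interval of the log2 fold change with Tβ-MCA ran from -0.26 to 0.47, around 0.10.

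Counted over the members, Tβ-MCA and PBS did not overlap for 6 of 8 genes, 3 above PBS and 3 below, where 27% of all 16761 genes tested did not overlap (14.1% above and 12.8% below). By total counts, a scaling added after the data were seen, it was 5 of 8, since Dusp2 overlapped, beside 28.1% of all genes. In the fit across all genes (quasi-likelihood test of edgeR, Benjamini-Hochberg adjusted), 5 of the 8 members had an adjusted p under 0.05 with Tβ-MCA, beside 7.62% of all genes, 4.44% higher and 3.18% lower. Over all genes this was 745 higher and 533 lower, a split that became 1013 and 395 with total library size in place of the TMM scaling, where Dusp16 no longer passed. These were Gadd45a, Gadd45b and Gadd45g on the higher side and Dusp1 and Dusp16 on the lower side. Nothing is read from this count, since the members were chosen with these values known. The count also rested on single libraries. It was 0 when any of PBS replicate 3, PBS replicate 5, Tβ-MCA replicate 3 or Tβ-MCA replicate 4 was left out. It was 1 (Dusp1) without PBS replicate 6, and 6 without Tβ-MCA replicate 5, where 18% of all genes passed. With the 2 groups alone it was 0. With the replicate number as a block in the fit it was 2 (Dusp1 and Dusp16), beside 8.94% of all genes, and no Gadd45 gene passed.

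For the Gadd45 genes, Dusp1 and Dusp16, Tβ-MCA replicate 5 was the sample of its group nearest to PBS. A move of their log2 fold changes away from 0 without it therefore follows from that choice. The values without it were 0.97 ± 0.19 (SE) for Gadd45a, 0.91 ± 0.17 for Gadd45b, 0.73 ± 0.12 for Gadd45g, -0.87 ± 0.10 for Dusp1 and -0.83 ± 0.22 for Dusp16. Dusp6 stayed near 0, at 0.14 ± 0.19, and Dusp10 went from -0.56 ± 0.49 to -0.50 ± 0.56. When each PBS or Tβ-MCA library was left out in turn, the value of Gadd45a ranged from 0.59 to 0.97, that of Gadd45b from 0.58 to 0.91, that of Gadd45g from 0.48 to 0.73 and that of Dusp1 from -0.87 to -0.57. The libraries with the largest difference in the Gadd45 genes and Dusp1, Tβ-MCA replicates 3 and 4, were also those with the lowest monocyte markers and the lowest Ly6g. The part of these markers in the result was not tested.

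**Figure D3:**
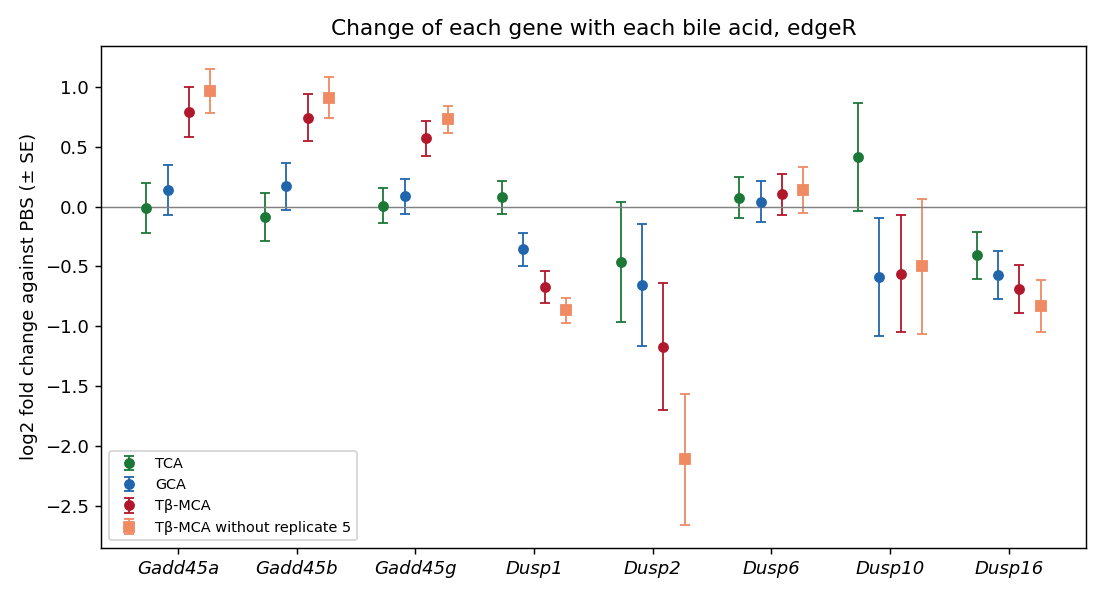
Log2 fold change against PBS of each of the 8 genes with TCA, GCA and Tβ-MCA, and with Tβ-MCA without replicate 5. Points are edgeR estimates and bars are SE, and all comparisons use the same PBS samples. The 3 Gadd45 genes lie between 0.57 and 0.97 with Tβ-MCA and between -0.09 and 0.17 with TCA and GCA.

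**Figure D4:**
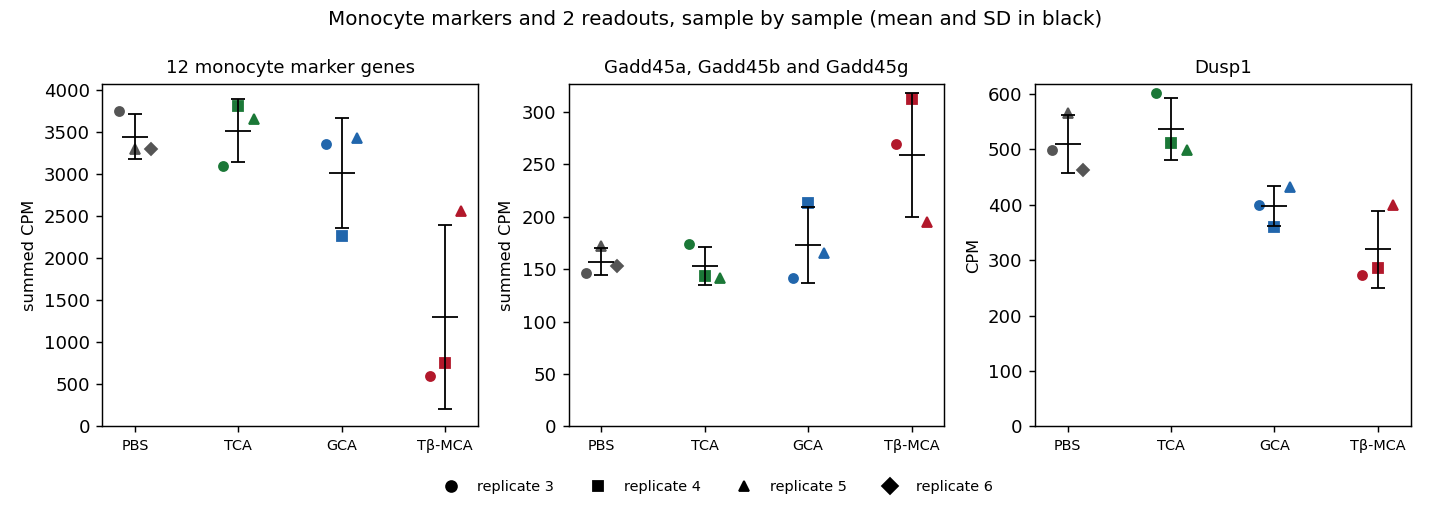
Summed CPM of 12 monocyte marker genes, summed CPM of the 3 Gadd45 genes and CPM of Dusp1 in each sample, by group, with replicate numbers as symbols and the mean and SD of 3 samples in black. Tβ-MCA replicates 3 and 4 have the lowest marker sums (595 and 753 CPM) and the highest Gadd45 sums (269 and 312 CPM), and Tβ-MCA replicate 5 has 2561 and 195 CPM.

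TCA and GCA were each compared with the same PBS samples as Tβ-MCA, so the 3 comparisons are not independent. With TCA, 1 of the 8 members did not overlap PBS (Dusp10, above), where 9.67% of all genes did not overlap (4.91% above and 4.76% below). With GCA, 3 members lay below PBS (Dusp1, Dusp2 and Dusp16) and none above, where 9.54% of all genes did not overlap (4.71% above and 4.83% below). In the edgeR fit 0 of 8 members and 0% of all genes passed with TCA, and 0 of 8 and 0% with GCA. At an unadjusted p under 0.05 there were 546 genes with TCA and 591 with GCA, of which 0 and 2 (Dusp1 and Dusp16) were members, and DESeq2 called 1 and 0 genes.

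TCA and GCA carry the same bile acid, cholic acid, and differ in the amino acid joined to it, taurine or glycine. The labels give them the same dose and time, so the pair was compared directly. Dusp1 was the member that did not overlap, with 360 to 432 CPM in GCA below 498 to 601 CPM in TCA, where 8.01% of all genes did not overlap (3.82% above and 4.19% below). Its difference, GCA minus TCA, was -0.43 on the log2 scale with a 95% interval of -0.73 to -0.14, not adjusted for the number of genes. For the activators the interval included 0, from -0.31 to 0.61 for Gadd45a, from -0.18 to 0.70 for Gadd45b and from -0.23 to 0.39 for Gadd45g. It ran from -0.59 to 0.27 for Dusp16, from -1.30 to 0.91 for Dusp2, from -0.40 to 0.33 for Dusp6 and from -2.01 to 0.01 for Dusp10. In the edgeR fit 0 of 8 members and 0% of all genes passed, 412 genes had an unadjusted p under 0.05 and DESeq2 called 0. Tβ-MCA was not tested against TCA or GCA, because the labelled doses differ. Side by side, the group means ± SD of Gadd45b were 120 ± 28.0 CPM in Tβ-MCA, 67.3 ± 10.0 in TCA and 80.4 ± 17.5 in GCA (n = 3 each), and those of Dusp1 were 319 ± 69.7, 537 ± 55.9 and 397 ± 36.2 CPM.

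The question was then how the rest of the pathway stood. Of 114 genes in 5 lists around the members, 110 were in the table and 100 passed the filter on low counts. With Tβ-MCA 14 of the 100 passed the test, 7 higher and 7 lower, or 14% where 7.62% of all genes passed. The lists, like the members, were chosen with earlier results of these data known. This count and the adjusted p-values of the listed genes are therefore descriptions. The count was 0 without PBS replicate 3, PBS replicate 5, Tβ-MCA replicate 3 or Tβ-MCA replicate 4, 6 without PBS replicate 6, where 0.981% of all genes passed, and 26 of 101 without Tβ-MCA replicate 5, where 18% did.

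Among the kinases of the MAPK cascades 7 of 28 passed, 6 higher and 1 lower, beside 4.44% of all genes higher and 3.18% lower. The median log2 fold change was 0.06, where that of all genes was 0.00. Map3k4, whose product MEKK4 is the kinase that Gadd45 proteins bind, rose from 30.7, 25.6 and 29.2 CPM in PBS to 54.4, 49.9 and 37.9 CPM with Tβ-MCA. The groups did not overlap, and the log2 fold change was 0.73 ± 0.13 (SE, adjusted p = 0.0206). Map2k6, whose product MKK6 phosphorylates p38 directly, rose from a very low level of 0.746, 0.529 and 0.916 CPM in PBS to 7.98, 6.40 and 2.92 CPM in Tβ-MCA. This is a log2 fold change of 2.97 ± 0.64 (SE, adjusted p = 0.0290). In the other groups Map2k6 was at 0.338 to 0.649 CPM in TCA and at 0.676, 3.44 and 0.674 CPM in GCA, where replicate 4 stood far above the other GCA samples.

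A further 3 kinases at the top of the cascades rose by less. Map3k2, which acts toward ERK5 and JNK, went from a mean of 44.4 ± 1.54 CPM (SD, n = 3) to 55.3 ± 2.75 CPM, with a log2 fold change of 0.32 ± 0.063 (SE, adjusted p = 0.0208). Zak, the older symbol of Map3k20, a kinase that senses stalled ribosomes, rose by 0.38 ± 0.090 on the log2 scale (SE, adjusted p = 0.0271). Map3k1, an upstream kinase of JNK, rose by 0.32 ± 0.079 (SE, adjusted p = 0.0298). Map3k2 also lay above PBS in every TCA sample (48.5 to 49.4 CPM) and every GCA sample (46.5 to 48.5 CPM). Zak lay above PBS in every GCA sample (47.9 to 57.6 CPM) but not with TCA. Map3k1 overlapped PBS with both, and none of these differences with TCA or GCA passed. Mapk13, which encodes p38δ, was the kinase that fell, from 69.4, 74.0 and 69.8 CPM in PBS to 37.9, 43.9 and 57.6 CPM under Tβ-MCA. Its log2 fold change was -0.61 ± 0.12 (SE, adjusted p = 0.0208). It was also below PBS in every TCA sample (63.9 to 67.4 CPM), which did not pass, and overlapped PBS with GCA. Mapk9, which encodes JNK2 and is named here after its value was seen, was the last of the 6 that rose, with a log2 fold change of 0.40 ± 0.10 (SE, adjusted p = 0.0332).

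**Figure D5:**
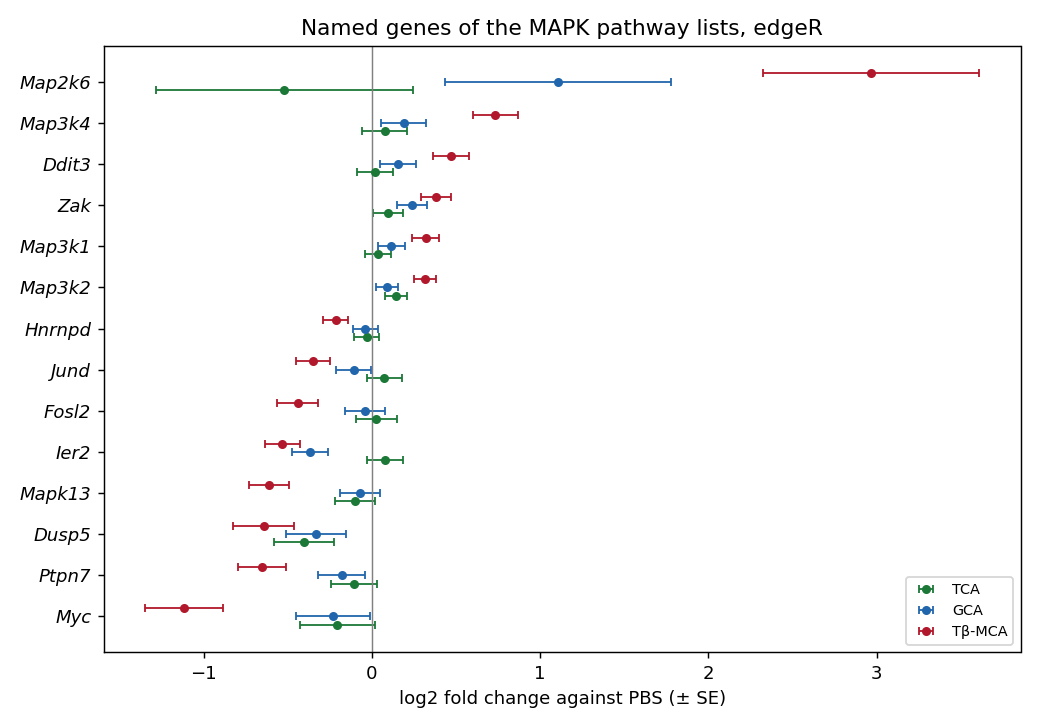
Log2 fold change against PBS of 14 genes from the 5 lists around the MAPK pathway, with TCA, GCA and Tβ-MCA. Points are edgeR estimates and bars are SE. With Tβ-MCA all but Hnrnpd passed the test, from Map2k6 at 2.97 to Myc at -1.12.

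Of the other MAPK phosphatases 2 of 20 passed, both lower, beside 7.62% of all genes, with a median over the list of 0.01. Ptpn7, a tyrosine phosphatase of blood cells that acts on ERK and p38, fell from 45.8, 38.1 and 34.6 CPM in PBS to 20.3, 23.1 and 31.7 CPM under Tβ-MCA, a log2 fold change of -0.65 ± 0.14 (SE, adjusted p = 0.0235). Dusp5, a nuclear phosphatase of ERK, fell from 3.50, 3.76 and 2.64 CPM to 2.30, 1.78 and 2.25 CPM, with a log2 fold change of -0.64 ± 0.18 (SE, adjusted p = 0.0426). Dusp5 was also below PBS with TCA, at 2.54, 2.42 and 2.52 CPM, but this did not pass (log2 fold change -0.40, adjusted p = 0.9999).

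Most genes known to respond to MAPK signalling had negative estimates with Tβ-MCA. Of 21 tested, 4 passed, all lower, beside 3.18% of all genes that passed as lower. Of the 21, 18 had a negative log2 fold change and the median was -0.30. Myc, the growth regulator, fell from 8.03, 6.03 and 4.77 CPM in PBS to 2.93, 2.13 and 3.61 CPM under Tβ-MCA, a log2 fold change of -1.12 ± 0.23 (SE, adjusted p = 0.0208). Ier2, an immediate early gene, fell from 67.6, 74.0 and 61.0 CPM to 43.1, 48.5 and 48.4 CPM, with a log2 fold change of -0.53 ± 0.11 (SE, adjusted p = 0.0208). The AP-1 subunits Fosl2, with -0.44 ± 0.12 (SE, adjusted p = 0.0452), and Jund, with -0.35 ± 0.10 (SE, adjusted p = 0.0496), also fell.

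Ier2, like Dusp1, was lower in every GCA sample than in any PBS or TCA sample. It was at 46.6, 51.0 and 59.3 CPM in GCA, and at 81.6, 67.7 and 64.3 CPM in TCA. GCA against PBS gave -0.37 ± 0.11 (SE) and GCA against TCA -0.44 ± 0.11 (SE) on the log2 scale, and neither passed (adjusted p = 0.9987 and 0.9998).

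Among genes that induce Gadd45 genes or partner their products, 1 of 19 passed, beside 7.62% of all genes. Ddit3, which encodes the stress factor CHOP, rose from 79.2, 96.3 and 88.1 CPM in PBS to 116, 141 and 108 CPM under Tβ-MCA, a log2 fold change of 0.47 ± 0.11 (SE, adjusted p = 0.0257). In that list 6 estimates were positive and 13 negative, and the median was -0.08. Of 12 genes for the decay of mRNAs with AU-rich elements, to which many early-response mRNAs belong, 0 passed in edgeR, beside 7.62% of all genes. Of the 12, 3 had an unadjusted p under 0.05 in edgeR, where 4176 of all 16761 genes tested did. A negative estimate was found for 10 of the 12, and the median was -0.06. Hnrnpd, an RNA-binding protein gene, had the lowest p of that list, with a log2 fold change of -0.22 ± 0.074 (SE, adjusted p = 0.0831), and its groups overlapped. Zfp36 and Zfp36l1, named here after their values were seen, lay below PBS in every Tβ-MCA sample. Their log2 fold changes were -0.69 ± 0.24 and -1.10 ± 0.40 (SE), and neither passed in edgeR (adjusted p = 0.113 and 0.135). Without Tβ-MCA replicate 5, 4 of 21 other phosphatases passed (1 higher), 10 of 28 kinases (9 higher) and 5 of 21 responsive genes (0 higher). In that fit 5 of 19 inducers and partners (1 higher, 4 lower) and 2 of 12 decay genes (0 higher) passed, where 18% of all genes did.

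With TCA, GCA, and GCA against TCA, 0 of the 100 genes passed, beside 0% of all genes. At an unadjusted p under 0.05 there were 5, 5 and 7 of them, beside 546, 591 and 412 of all 16761 genes. DESeq2 called 0 of the 100 in each. The 10 listed genes that were in the table but under the filter had at most 12 counts in any sample and included Mapk11 and Mapk12 of the p38 family.

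Each member was last set beside the tested genes with the most similar pattern, by Pearson r of log2 CPM over the 12 samples. The nearest to Gadd45a was E230016M11Rik, the gene that overlaps it, with r = 0.987, followed by 1700109G14Rik with 0.973. Gadd45b was nearest to Baiap2l1 (0.988) and Gm15708 (0.984), and Gadd45g to Man2a2 (0.986) and Pfkl (0.977). Dusp1 was nearest to Chd7 (0.970) and Zfyve27 (0.962), and Dusp16 to Snrpa1 (0.928) and Ppp2ca (0.921). For the low-count members the nearest genes were Gm27761 (0.932) and Snrnp35 (0.908) for Dusp2 and Erap1 (0.836) and Gm22753 (0.830) for Dusp10, and for Dusp6 they were Gm27221 (0.943) and Gm15494 (0.926). These are the highest of 16761 values for each gene, over samples that share treatments and libraries, and they are given as a description.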

How the data were processed

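mRNA of 12 neutrophil samples was sequenced with a stranded kit. Per the submitters' processing notes the tools were Trimmomatic 0.36, STAR 2.5.3a and featureCounts (Subread 1.5.1), with GRCm38 (mm10). The authors deposited raw counts per gene and RPKM values, and RPKM recalculated from the counts differed by a relative 1.3e-06 at most. Whether strands or mates were counted separately is not given in the sources used here. The columns headed GA were read as the GCA samples, since the series text abbreviates that bile acid so.

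The members and all lists were chosen with earlier results of these data known, so members carry no test and counts over the lists are descriptions. Counts were normalised by TMM and filtered with filterByExpr by group, which left 16761 genes, the 8 members among them. edgeR 4.0.16 (R 4.3.3) fitted its robust quasi-likelihood model to all 12 samples, and a gene passed at a Benjamini-Hochberg adjusted p under 0.05. The 4 comparisons were each bile acid with PBS and GCA with TCA. CPM used the TMM-scaled library sizes, and log2 CPM for correlations a prior count of 2. The script was tested on simulated counts.

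Named were all members, in each list the genes that passed with Tβ-MCA (up to 6 by lowest p, or the 1 with the lowest p where none passed), in other comparisons up to 3, and the 2 genes most similar to each member. The listed genes Dusp9, Dusp21, Dusp26, Mapk10 and Ncr1 had no row and were not analysed here. Alternatives were DESeq2 1.42.0, limma 3.58.1 on log2(RPKM + 1) for genes whose RPKM averaged 0.5 or more, total library size, other filters, the 2 groups alone, the study's cutoffs (p 0.05 and fold change 2), the replicate block and each sample left out. Python 3.11.15 with pandas 2.3.3 and matplotlib 3.10.9 made the summaries and plots.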

Additional observations from a re-analysis of the deposited data

Results flagged for a closer look

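Among the members and the plotted pathway genes, 3 met the following rule. Every Tβ-MCA sample lay on one side of the PBS mean and every TCA sample on the other. The share of all genes that met it was not computed, so nothing is read from this count. The difference between the bile acids was not tested in any of them. Dusp10 had a log2 fold change of -0.56 ± 0.49 (SE) with Tβ-MCA and 0.41 ± 0.45 with TCA, at 8 to 32 counts per sample in these groups. Map2k6 had 2.97 ± 0.64 with Tβ-MCA and -0.52 ± 0.76 with TCA. Jund had -0.35 ± 0.10 with Tβ-MCA and 0.07 ± 0.10 with TCA. With TCA no estimate exceeded its SE in size. The labelled doses of Tβ-MCA and TCA differ.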

How the results depend on the processing

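Under the settings tried, no named pathway gene changed direction with Tβ-MCA. Some log2 fold changes of members with Tβ-MCA moved by more than their SE. Without Tβ-MCA replicate 5, Dusp1 went from -0.67 ± 0.14 (SE) to -0.87, Gadd45g from 0.57 ± 0.15 to 0.73 and Dusp2 from -1.17 ± 0.53 to -2.11. Of 182 values of named pathway genes with Tβ-MCA, 100 kept their side of the threshold, 81 lost it and 1 gained it. The counts of genes passed depended more on the setting, and the cause was not tested. Pathway genes with Tβ-MCA (14) numbered 0 with the 2 groups alone, where 0 of 16064 genes passed in edgeR and 3485 had an unadjusted p under 0.05. They numbered 5 of 100 at p under 0.05 with a fold change of at least 2, beside 2.95% of all genes. With each library left out they ranged from 0 to 26. Members with Tβ-MCA (5) numbered 2 of the 6 tested with limma on log2(RPKM + 1), beside 6.17% of all genes. They numbered 0 with the 2 groups alone and 1 of 8 (Dusp2) at the study's cutoffs, beside 2.95% of all genes. With each library left out they ranged from 0 to 6. Without a filter, 110 pathway genes were tested. Of these 3 passed with TCA, 5 with GCA and 8 for GCA against TCA, where the main count was 0. Of all genes 0.124%, 0.121% and 0.141% passed there. Dusp1 was the 1 member of 8 that passed with GCA and for GCA against TCA. At the study's cutoffs 2 of 100 pathway genes passed for GCA against TCA, beside 0.442% of all genes. Over all genes DESeq2 called 1999 with Tβ-MCA beside 1278, no filter gave 2406, and leaving out each library gave 0 to 3076.

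The replicate numbers were not used as pairs in the main fit, because the labels do not say what they mark. Same-numbered samples deviated together with a correlation of 0.06 to 0.24 for Tβ-MCA and PBS (2 shared numbers, both correlating best with their own). For GCA and TCA it was 0.07 to 0.31, where 2 of 3 samples correlated best with their own number. Basophil and mast cell markers were highest in replicate 3 of every group. Whether the numbers mark a shared preparation was not tested. With the replicate block 2 members (Dusp1 and Dusp16) and 12 pathway genes passed with Tβ-MCA, and 1498 genes in all. The 3 Gadd45 genes, Map2k6, Fosl2 and Ddit3 did not pass in that fit.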
